A study of Mus musculus with 4 samples.

Results

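The replication-dependent histone gene cluster Hist1 lies on mouse chromosome 13 in 2 segments, and it was examined here in lists of chromatin islands enriched for histone H4 acetylated at lysine 16 (H4K16ac). An island is a stretch of neighbouring windows with more ChIP-seq reads than background, as called with SICER on build mm9. Members were taken by position alone, as islands that share at least 1 base with chr13:21750000-22200000 (segment 1) or chr13:23550000-23950000 (segment 2). Of 40570 islands in embryonic stem cells (ESC) 58 were members, and of 48278 islands in neural progenitor cells (NPC) 17 were, which makes 75 of 88848. The stretch between the segments, chr13:22200001-23549999, held 23 ESC and 10 NPC islands.

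Both cell types came from 46c, a mouse ES cell line with a GFP reporter in Sox1, a gene that is switched on in early neural progenitors. ESC were undifferentiated, and NPC had been differentiated for 5 days with NB27 and Neuro2 supplements and sorted by FACS for GFP. Chromatin was cut with micrococcal nuclease (MNase) and precipitated with the same Millipore H4K16ac antibody in both. Each cell type had 1 H4K16ac library and 1 MNase input library, so that no difference between ESC and NPC had a replicate check and no p-value was computed. Islands of an acetylation mark do not give expression of marker genes, and the identity of the cells was not checked against markers.

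Islands of the ESC list held 17935144 reads and those of the NPC list 24386370. Reads outside islands are not in the lists, so the depth of the libraries is unknown, and a place without an island may still carry the mark. Over all nuclear chromosomes NPC had 1.19 times as many islands as ESC, and they covered 1.60 times as many bases. The median island was less dense in NPC, at 76.6 reads per kb of island against 93.3 in ESC.

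Replication-dependent histone genes encode the linker histone H1 and the core histones H2A, H2B, H3 and H4. They are transcribed in S phase, when new DNA is packaged, and their mRNAs end in a stem-loop in place of a poly(A) tail. Acetylation of lysine 16 in the tail of H4, placed mainly by the acetyltransferase MOF (Kat8), weakens contacts between nucleosomes and is found at many active genes. In a gene table of another build (RefSeq, GRCm38.p6) chromosome 13 carries 54 protein-coding genes with a Hist1 name, of which 6 are H1, 13 H2A, 15 H2B, 9 H3 and 11 H4 genes.

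In that table they stand in 4 runs. The run of 18 genes from H2bc13 to H4bc24 (an H2B gene by its Hist1 name) is followed by 31 tRNA genes with Zfp184, Pom121l2 and Prss16, and then by 5 histone genes from H2ac12 to H2bc11. After these come 35 Vmn1r genes, which encode vomeronasal pheromone receptors, and 46 tRNA genes with Zfp322a, Abt1, Btn1a1 and Btn2a2. The run of 29 genes from H4c8 to H1f1 follows, and the testis histone genes H2bc1 and H2ac1 stand last. Because builds differ, no gene was placed under an island, and islands are given by position.

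To show what such promoters look like, 1 gene each of the H1, H2B, H3 and H4 classes is printed, with its motif matches (RefSeq, GRCm38.p6). These positions cannot be set beside the mm9 islands. Each line gives the 120 bases before the annotated start, 5′ to 3′ on the gene's strand, with motif matches in capitals:
H1f2, chr13:23738687-23738806, plus strand: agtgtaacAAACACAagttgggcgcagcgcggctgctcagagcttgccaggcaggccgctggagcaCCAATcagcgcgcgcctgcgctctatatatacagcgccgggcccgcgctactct
H2bc12, chr13:22035701-22035820, plus strand: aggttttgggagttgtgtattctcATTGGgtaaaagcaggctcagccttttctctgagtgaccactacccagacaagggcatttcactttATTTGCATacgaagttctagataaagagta
H3c2, chr13:23752225-23752344, plus strand: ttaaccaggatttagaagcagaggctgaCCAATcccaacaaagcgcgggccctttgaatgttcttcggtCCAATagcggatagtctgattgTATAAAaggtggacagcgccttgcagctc
H4c9, chr13:22041363-22041482, minus strand: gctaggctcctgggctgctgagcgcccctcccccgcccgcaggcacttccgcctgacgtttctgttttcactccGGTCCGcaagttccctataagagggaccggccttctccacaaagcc

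Motifs were searched on both strands in the 250 bases before the start, in the 52 windows that matched 51 of the 54 genes and in all 32851 windows of the table. The CCAAT box (CCAAT or ATTGG) was in 44 of 52 histone windows and in 33.8% of all windows. By class it was in 6 of 6 H1, 13 of 13 H2A, 15 of 15 H2B, 7 of 7 H3 and 3 of 11 H4 windows. The TATA box (TATAAA or TTTATA) was in 26 of 52, with matches in each class, and in 12.4% of all.

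The octamer known from H2B promoters (ATTTGCAT or ATGCAAAT) was in 6 of 15 H2B and 5 of 13 H2A windows, and in 1.6% of all. Neighbouring H2A and H2B genes are often divergent, so that their windows overlap and share matches. The H1 box (AAACACA or TGTGTTT) was in 5 of 6 H1, 2 of 13 H2A and 2 of 15 H2B windows, in no H3 or H4 window, and in 6.25% of all. The core of the H4 element (GGTCCG or CGGACC) was in 8 of 11 H4, 1 of 15 H2B and 1 of 7 H3 windows, in no H1 or H2A window, and in 6.72% of all. None of these motifs contains another. The genes shown were picked after their motifs were seen, and a match is a description of letters.

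In ESC the histone segments were rich in H4K16ac islands, and in NPC fewer islands with fewer reads were called there. Segment 1 held 34 ESC islands over 16.7% of its bases, and 8 NPC islands over 3.07%. Segment 2 held 24 ESC islands over 17.6% and 9 NPC islands over 3.35%. Together the segments had 145.8 kb of ESC and 27.2 kb of NPC islands, a ratio of covered bases of 0.187, NPC over ESC. The ratio of island numbers was 0.293 (exact Clopper-Pearson 95% interval 0.160 to 0.510).

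Chromosome 13 outside this stretch went the other way. Its 1782 ESC islands covered 5.65% of bases and its 2048 NPC islands 8.60%, a ratio of covered bases of 1.52. The histone segments were thus 3.03 times as covered as the rest of the chromosome in ESC, and 0.372 times as covered in NPC.

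The reads showed a larger difference than the island numbers. Member islands held 28979 ESC reads, or 1616 per 1000000 island reads of the list (RPM; 1597 to 1634), and 2258 NPC reads, or 92.6 RPM (88.8 to 96.5). The ratio of these shares was 0.0573 (0.0549 to 0.0598), so that the ESC share was 17.5 times the NPC share. These sums run over islands called separately in each list, 145.8 kb in ESC and 27.2 kb in NPC, so that they move with how much was called. Within called islands the ESC mean was 199 reads per kb and the NPC mean 83.0. At the 44 ESC islands without an NPC island, NPC reads are not in the list and enter as 0. Both segments gave nearly the same value, 0.0562 (0.0528 to 0.0596) in segment 1 and 0.0585 (0.0550 to 0.0622) in segment 2. These intervals cover counting error, and PCR copies of 1 molecule may be among the reads. Outside this stretch, chromosome 13 had a ratio of 0.935.

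**Figure D1:**
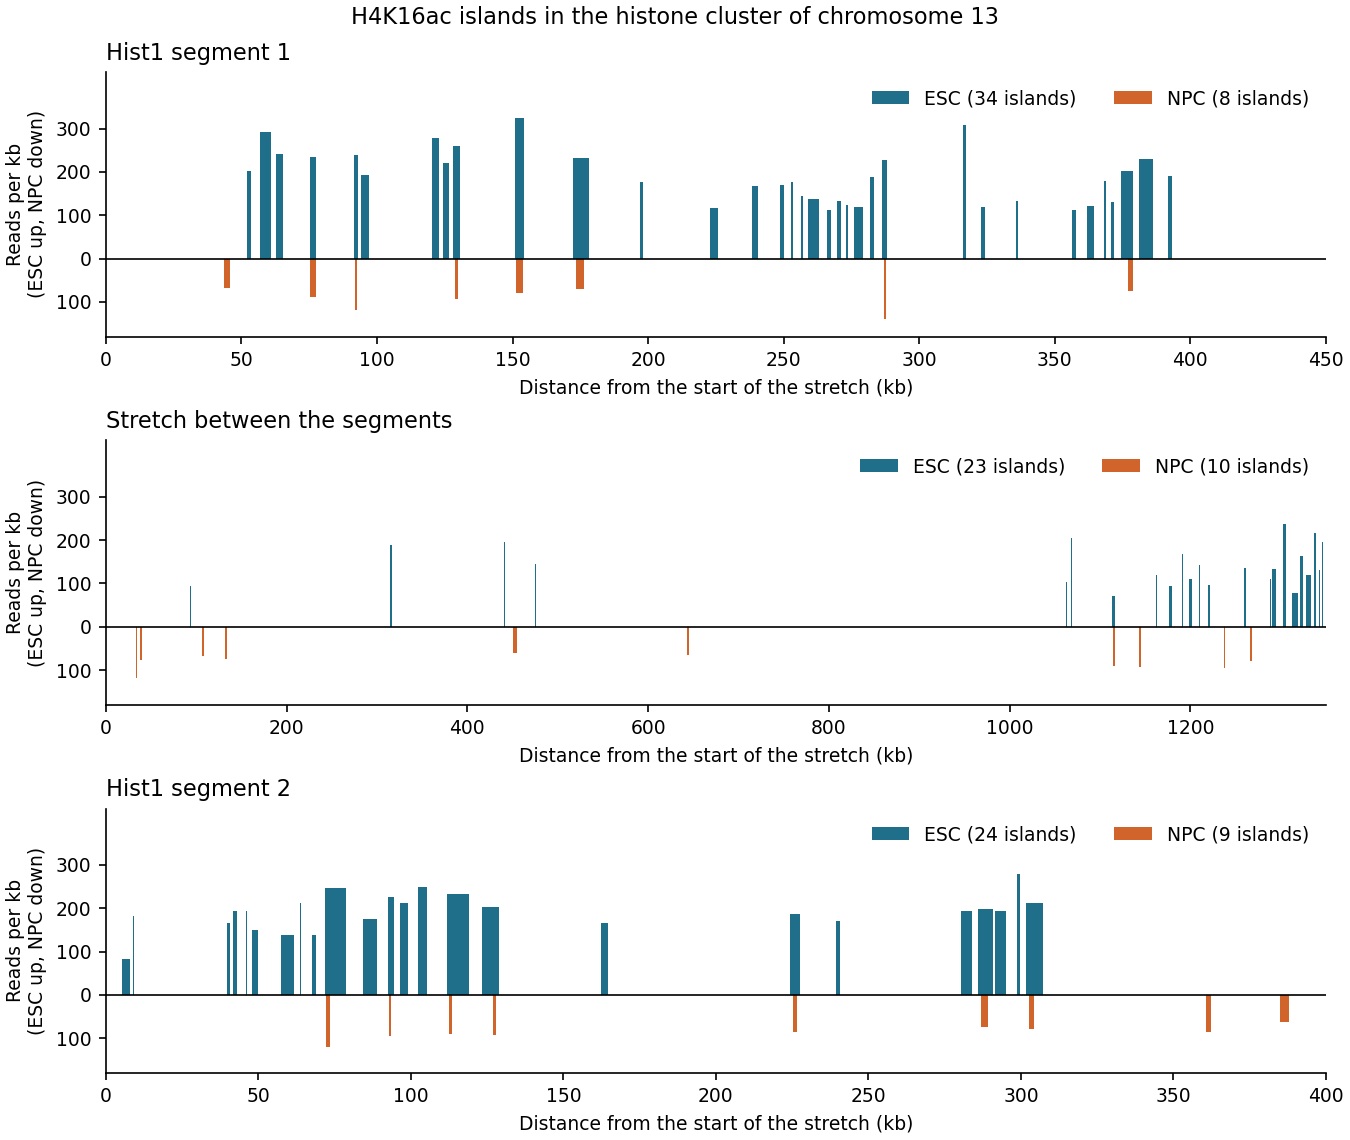
Islands of both lists in segment 1, in the stretch between and in segment 2, by distance from the start of each stretch in kb. Bars give reads per kb of island, upward for ESC and downward for NPC, and bar width is island width, with narrow islands of the middle panel drawn at a minimum width; the 34 and 24 ESC islands of the segments stand beside 8 and 9 NPC islands.

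ESC islands of the segments were dense. Their median was 191 reads per kb (order-statistic 95% interval 175 to 202), higher than 97.7% of all ESC islands, and the range was 83.5 to 324 reads per kb. At least 120 reads per kb were reached by 53 of 58 (91.4%), against 28.4% of all ESC islands. This threshold comes from earlier work on these data.

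In every width class the median member was denser than the median ESC island. Up to a width of 8000 bp, the median density of all ESC islands fell from each width class to the next. It was 140 reads per kb up to 1000 bp and 112 from 1200 to 2000 bp. From 2200 to 4000 bp it was 87.1, and from 4200 to 8000 bp 79.7. The members had medians of 179, 171, 194 and 212 reads per kb in these classes. Among the 9 widest members all 9 were denser than the median of their class.

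NPC islands of the segments stood less far from the rest of their list in density. Their median was 86.4 reads per kb (75 to 94), higher than 76.9% of all NPC islands, with a range of 63.7 to 139. In the classes up to 1000 bp, 1200 to 2000 bp and 2200 to 4000 bp they had medians of 94.5, 85.7 and 70.4 reads per kb, beside 109, 83.9 and 72.9 for all NPC islands. In NPC 2 of 17 members reached 120 reads per kb, against 1.57% of the list, and both were at most 1.2 kb wide.

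Member islands were narrower than the lists as a whole in both cell types. Their median width was 2200 bp (1600 to 2600) in ESC and 1400 bp (1000 to 2200) in NPC, beside 3000 and 4200 bp for all nuclear islands. The widest member was 7 kb in ESC and 3 kb in NPC. By segment the ESC medians were 1600 and 2700 bp and the NPC medians 1900 and 1200 bp.

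**Figure D2:**
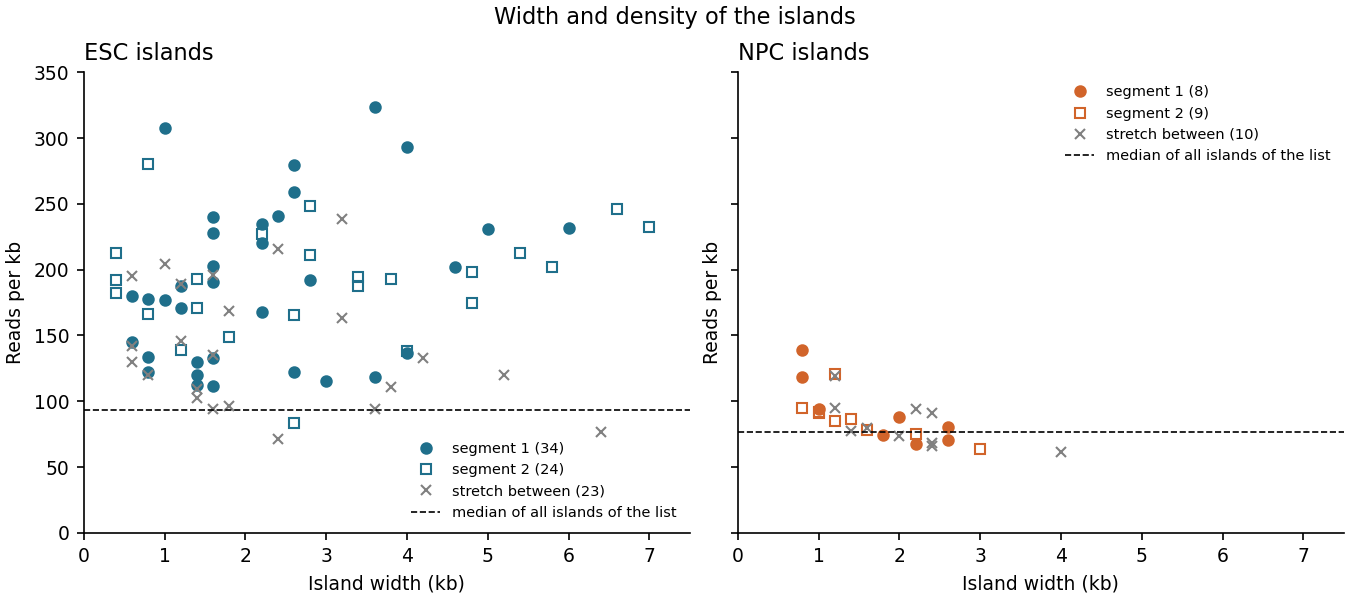
Width in kb against reads per kb for each island of segment 1 (filled circles), segment 2 (open squares) and the stretch between (crosses), with ESC on the left and NPC on the right. The dashed line is the median of all islands of the list, 93.3 for ESC and 76.6 for NPC; ESC members lie mostly above it, up to 324, and NPC members lie around it.

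Most places called in NPC lay within places called in ESC. Of the 17 NPC members 14 (82.4%, exact interval 56.6% to 96.2%) overlapped an ESC island, against 34.7% of all NPC islands. All 14 lay wholly inside 1 ESC island each, as did 45.3% of the overlapped NPC islands of the whole list. They took up from 14.3% to 90.9% of the ESC island, with a median of 38.8%. The share of 45.3% was not matched on width, and the median width was 1400 bp in NPC members and 4200 bp in the NPC list. From the other side, 14 of 58 ESC members (24.1%, 13.9% to 37.2%) overlapped an NPC island, against 39.8% of all ESC islands.

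ESC members with an NPC counterpart were at the median wider and denser than the others. They had medians of 4100 bp, 940 reads and 230 reads per kb, and the 44 others had medians of 1600 bp, 269 reads and 176 reads per kb. The ranges overlapped, from 188 to 324 reads per kb in the 14 and from 83.5 to 308 in the 44. The 44 islands without a counterpart held 54.9% of the ESC reads of the members.

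In each of the 14 regions called in both lists, NPC had fewer reads, a narrower island and a lower density. The median log2 NPC over ESC, by RPM, was -3.20 (-3.93 to -2.46), beside -0.49 over the 14478 such regions of the genome. All 14 lay below -1, against 28.1% of those regions, and 13 of 14 below -2, against 10.7%. The NPC island was the narrower in 14 of 14, against 46.4%.

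A region's RPM depends on its called width too, as reads outside islands are not listed. By reads per kb, scaled to island reads, the median was -1.82 (-1.91 to -1.47) with a range of -2.45 to -1.16, beside a median of -0.51 over all such regions. All 14 lay below -1 by this measure, against 15.7%. Without scaling to island reads the median was -1.38, and the same measure over all such regions was -0.07. The ESC islands of the 14 had a median of 230 reads per kb, against 93.3 for all ESC islands. The values over all such regions, here and by RPM, were not matched on ESC density.

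The largest differences by RPM were in the wide islands of segment 2. The ESC island at chr13:23662001-23669000 held 1626 reads over 7 kb (90.7 RPM), and the NPC island within it 91 reads over 1 kb (3.73 RPM), a log2 of -4.60 (-4.92 to -4.30). At chr13:23673201-23679000 the counts were 1172 and 92 reads, a log2 of -4.11 (-4.44 to -3.81). At chr13:23622001-23628600 they were 1626 and 145 reads, a log2 of -3.93 (-4.19 to -3.68). In these 3 the NPC island took up 14.3% to 18.2% of the ESC one, and by density the log2 values were -1.80, -1.58 and -1.47, within the range of the other regions.

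The smallest differences by RPM were in short ESC islands of segment 1. At chr13:21825401-21827600 there were 516 ESC and 176 NPC reads, with a 95% interval of the log2 from -2.25 to -1.75, and the NPC island was 2 kb of the 2.2 kb. At chr13:22036401-22038000 there were 365 and 111 reads, a log2 of -2.16 (-2.48 to -1.85). At chr13:21841401-21843000 there were 384 and 95 reads, a log2 of -2.46 (-2.80 to -2.13). Even at the first of these, the smallest difference of the 14 by RPM, the read share in ESC was 3.99 times that in NPC. By density the log2 values were, in the order above, -1.86, -1.16 and -1.46, beside a median of -1.82 over the 14.

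**Figure D3:**
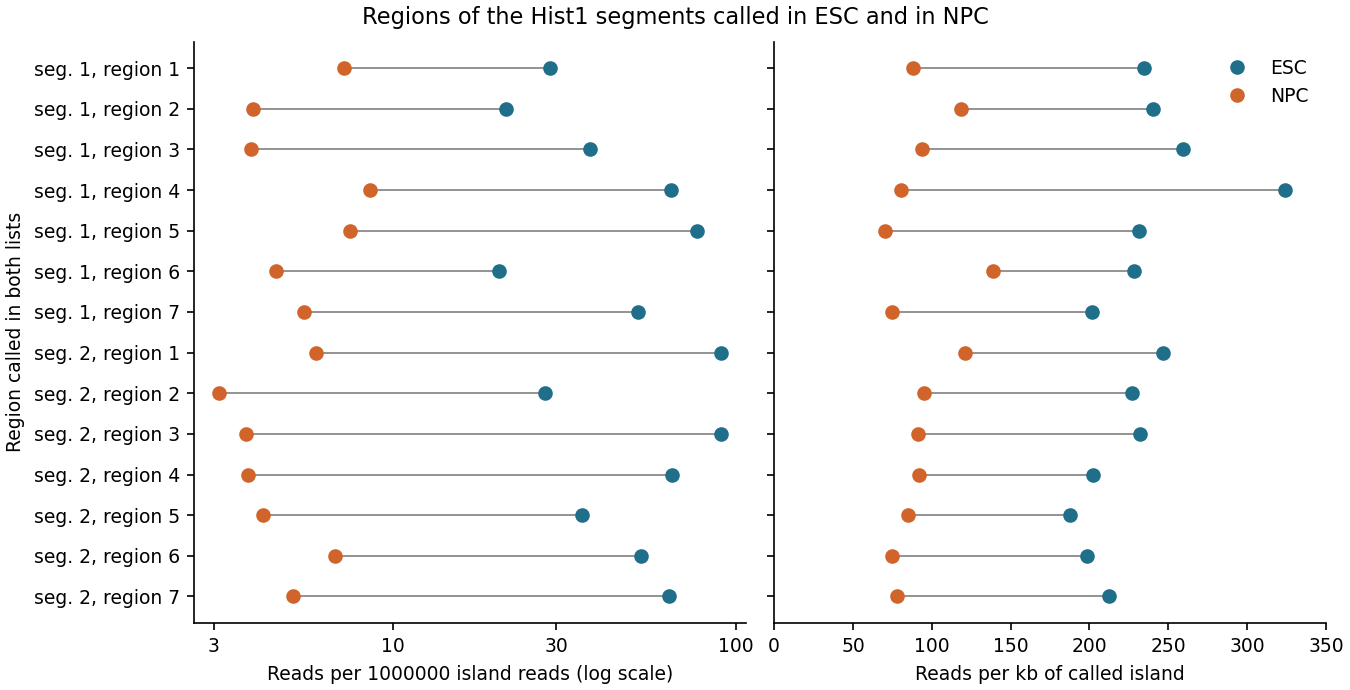
The 14 regions called in both lists, in order along each segment, by reads per 1000000 island reads on a log scale (left) and by reads per kb of called island (right); each line joins the ESC and the NPC value of 1 region. On the left ESC lies between 20.4 and 90.7 and NPC between 3.12 and 8.57. On the right, without scaling to island reads, ESC lies between 188 and 324 and NPC between 70.4 and 139.

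Among the 5 regions with most ESC reads, 1 had no NPC island. It lay in segment 1 at chr13:21806801-21810800, with 1172 reads at 293 reads per kb. A further island without an NPC counterpart, named after its values were seen, held 1154 reads at chr13:22131201-22136200. The densest ESC island of the segments, at chr13:21900801-21904400 with 1166 reads at 324 reads per kb, was denser than 99.96% of all nuclear ESC islands. It also enclosed the NPC member with most reads, 209 over 2.6 kb at 80.4 reads per kb. The widest ESC island of segment 1, at chr13:21922201-21928200, held 1388 reads, and the NPC island inside it 183. In segment 2 the densest was a short ESC island at chr13:23848801-23849600, with 224 reads at 280 reads per kb.

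NPC counts were low throughout. The member with the next most NPC reads, 191 at chr13:23935001-23938000, was also the widest NPC member. The region at chr13:23836001-23840800 held 165 NPC reads beside 952 in ESC. The densest NPC members were 0.8 kb at 139 reads per kb inside the region from 22036401, and 1.2 kb at 121 reads per kb inside that from 23622001. No NPC member reached 313 reads, the median of the NPC list.

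Islands were not spread evenly over the segments, and the divisions that follow were drawn after seeing them. In segment 1 ESC islands ran from 21802001 to 22143400 with a median gap of 3.2 kb. The first 12 of them, between 21800001 and 21950000, had a median of 237 reads per kb, and 5 overlapped an NPC island. The next 15, up to 22100000, were less dense, at 136 reads per kb, and 1 of them did. The last 7, up to 22150000, had a median of 180 reads per kb and covered 34.8% of that 50 kb, and 1 of them overlapped an NPC island. Over all ESC islands the overlapped share was 39.8%, and each of these parts holds few islands.

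In segment 2 the ESC islands stood in separate groups. The 9 islands between 23550001 and 23620000 covered 18.6% of that stretch at a median of 166 reads per kb, and no NPC island was called there. The following 60 kb was the most covered part, with 7 ESC islands over 53.3% of its bases at 227 reads per kb, and 4 NPC islands over 6.67%. Between 23800001 and 23860000 there were 5 ESC islands over 30.3% and 2 NPC islands over 6.33%. The longest stretch with no island of either list was 59.4 kb in segment 2, from 23714801 to 23774200, and 56.6 kb in segment 1, from 22143401 to its end at 22200000.

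The 3 NPC members outside ESC islands lay at the outer edges. In segment 1 this was the island at chr13:21793601-21795800, with 148 reads at 67.3 reads per kb, upstream of the first ESC island. In segment 2 they lay at chr13:23910801-23912200 (121 reads, 86.4 reads per kb) and chr13:23935001-23938000 (63.7 reads per kb). The last 90 kb of segment 2 held these 2 NPC islands and no ESC island.

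The stretch between the segments was covered less in both cell types, and its parts differed. ESC islands covered 3.82% of its bases and NPC islands 1.54%, so that the segments were 4.49 times as covered in ESC and 2.08 times in NPC. The ratio of read shares, NPC over ESC, was 0.176 (0.166 to 0.185) beside 0.0573 in the segments. ESC islands there had a median density of 133 reads per kb (109 to 169), and NPC islands one of 78.6 (66.2 to 95). At least 120 reads per kb were reached by 14 of 23 ESC islands (60.9%), against 28.4% of all ESC islands.

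Most of the ESC cover between the segments lay beside segment 2. The last 100 kb held 10 of the 23 ESC islands over 28.8% of its bases, and 1 NPC island over 1.6%. The 3 with most reads were all there, with 762 reads at chr13:23502201-23505400, 623 at chr13:23528001-23533200 and 559 at chr13:23490601-23494800. The difference in cover between the cell types in these 100 kb was thus larger than over each whole segment. In percentage points it was smaller than in the 60 kb of segment 2 from 23620001, with 53.3% in ESC and 6.67% in NPC. In the remaining 1250 kb between the segments (a division made once the islands had been seen), ESC islands covered 1.82% and NPC islands 1.54%. Beside this remainder the segments were 9.40 times as covered in ESC. From 22675801 to 23262000, a stretch of 586.2 kb, no ESC island was called.

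NPC islands between the segments were scattered. Of these 10, 1 overlapped an ESC island (10%, exact interval 0.253% to 44.5%). The share over all NPC islands, 34.7%, lies inside that interval. The 10 islands began at 22233401, 22238401, 22306801, 22331601, 22650601, 22843401, 23314401, 23343001, 23436801 and 23466201, and held from 108 to 245 reads. The shared region, chr13:23313801-23316800, had 171 ESC and 218 NPC reads, a log2 of -0.09 (-0.39 to 0.20). This interval covers counting error in 1 library per cell type. By the same measure the 14 regions of the histone segments ranged from -4.60 to -1.995.

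Set beside consecutive autosomal windows of the same length with an island in either list, the segments were well covered in ESC and near the middle in NPC. Windows that touch the cluster were left out. Segment 1 was more covered than 83.6% of 5162 windows of 450 kb in ESC and than 44.1% in NPC. Segment 2 was more covered than 84.7% of 5755 windows of 400 kb in ESC and than 45.0% in NPC.

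Few windows combined the cover of ESC and NPC found here. Of the 848 windows with at least the ESC cover of segment 1, 4 had as little NPC cover or less, and the median NPC cover of the 848 was 36.6%. For segment 2 this was 8 of 882, with a median of 37.8%. The cover in NPC minus that in ESC was -13.6 percentage points in segment 1, and 0.620% of windows had a value as low. In segment 2 it was -14.3 points, and 0.730% of windows had a value as low. A window can fall this far only if its ESC cover is at least as large as the fall. The median ESC cover was 3.38% for windows of 450 kb and 3.2% for those of 400 kb, so that most windows could not. The shares of 0.620% and 0.730% thus do not measure how rare such a fall is among well-covered windows. All these shares describe the 2 libraries, and windows are not replicates.

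**Figure D4:**
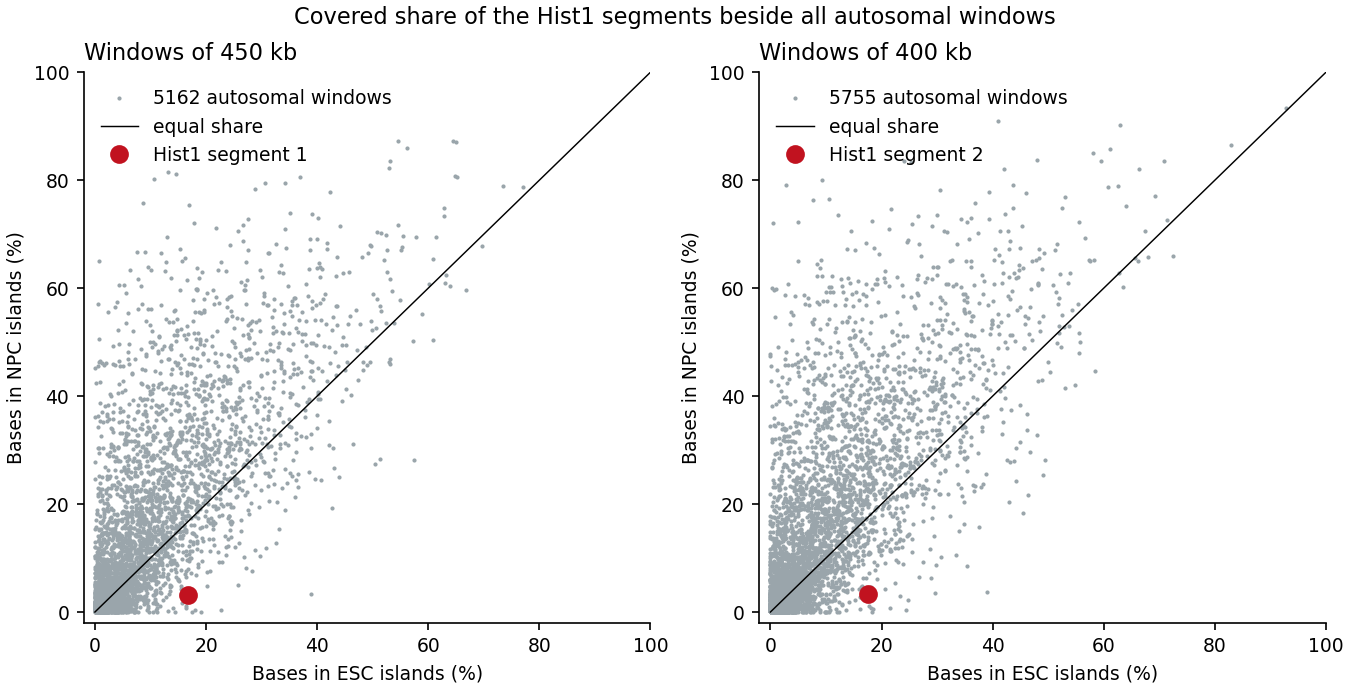
Share of bases in ESC islands (x axis, percent) and in NPC islands (y axis, percent) for consecutive autosomal windows of 450 kb (left) and 400 kb (right), each grey point 1 window, with the line of equal shares. The red point is segment 1 at 16.7% and 3.07% (left) and segment 2 at 17.6% and 3.35% (right), at the lower edge of the windows with similar ESC cover.

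Many core histone genes of the cluster are close copies of others of their class, and how reads that match several places were treated is not given in the sources used here. The part of such reads in these values was not tested. The lower median density of the NPC list as a whole moves in the same direction as the values of the members, with a ratio of medians of 0.821 against 0.452 in the segments. Fewer cells with the mark and less mark per cell cannot be told apart in bulk libraries.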

How the data were processed

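H4K16ac islands of 1 ESC and 1 NPC library were analysed, and the input libraries were not used here. SICER 1.1, bedtools 2.10.1, Bowtie 0.12.7, CASAVA 1.8.2, SAMtools 0.1.7 and build mm9 are named, per the submitters' processing notes. The lists' names state windows of 200 bp, 600 bp as gap and 0.01 as false discovery rate. The value per island was read as a whole-number count of reads, as deposited by the authors, with no scaling to depth or input. How duplicates and the input were treated is not given in the sources used here.

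Starts and ends were moved by 1 to count from 1, and 100% of widths were then multiples of the window. ESC and NPC islands were joined into 1 region where they shared at least 1 base. Shares have exact Clopper-Pearson 95% intervals and medians order-statistic ones, and neither covers variation between cultures. Intervals over islands treat neighbours as independent. The median member held 368 reads in ESC and 125 in NPC, a counting error of 5.22% and 8.94%.

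The segments, the lists and the rule for naming regions were chosen with earlier results of these data known. The rule named the 5 regions with most reads in each list, the widest and densest island per list and segment, the 3 highest and 3 lowest log2 values, the longest empty stretch, and the islands between (the 3 with most reads if over 10). The H1, H2A, H2B, H3 and H4 genes came from the reference table. Alternatives covered membership, segment edges, island width, reads, joining of gaps, the overlap required and scaling. Overlap and ratio code was tested on simulated data and against bedtools 2.31.1. Values were computed with pandas 2.3.3, numpy 2.4.6 and scipy 1.17.1 under Python 3.11.15 and drawn with matplotlib 3.10.9.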

Additional observations from a re-analysis of the deposited data

How the results depend on the processing

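Alternative settings gave 88 values for 13 results. Of these 73 lay inside the main value's interval (or, lacking one, within 1.5 times of it) and 15 lay outside. No ratio or log2 value changed direction, and medians and overlap shares have none to reverse. No island crossed a segment edge, so asking for at least 50% of its width in a segment changed nothing. With islands of at least the median reads of their list, no NPC member was left: the ratios of island numbers, covered bases and read shares and the share of ESC members overlapped were 0, the median ESC width was 3000 bp and density 211 reads per kb, and NPC medians, the share of NPC members overlapped, log2 values and the NPC cover ratio gave no value. The ESC width was 3200 bp with gaps joined and 2700 bp in segment 2 alone. The ratio of read shares was 0.0611 with the segments widened, 0.0516 for islands of at least 1000 bp, 0.117 by covered bases and 0.0779 without scaling to island reads. When 50% of the island had to be shared, 6.90% of ESC members were overlapped. The median log2 was -1.82 by reads per kb. Cover relative to the stretch between was 9.40 in ESC without its last 100 kb. The unscaled reads and this shorter stretch were chosen after seeing the data. No paired analysis was possible because each cell type had 1 library. Library depth is unknown, which limits what a place called in 1 list shows.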
